A study of Mus musculus with 5 samples.

Results

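Speer4e and 6 transcripts of related sequence, Gm10354, Gm21190, Gm17019, Gm9758, Gm7361 and Gm6408, were followed through the germ cells of the mouse testis. They are 7 of the 27998 features counted, taken by symbol because they led together in 1 set of germ cells at 556.8 and 763.2 h. Their levels therefore chose them, and the levels below are a description with no test. The count files hold 11 further features whose symbols start with Speer, which serve for comparison.

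The series is single-cell RNA sequencing of whole testis from synchronized mice, with 1 library at each of 5 times, 0 h (titled Control), 144 h (EP1), 350.4 h (EP2), 556.8 h (EP3) and 763.2 h (EP4). The sample fields round 350.4 and 556.8 h down to 350 and 556 h. Synchronized testis was the material at every time, 0 h included, and the sources used here give neither strain nor age, nor the agent used, nor the number of mice behind a library. With 1 library per time no difference between times has a replicate check, so no p-values were computed, and every interval is an exact 95% interval for counting error only. The libraries held 7441 to 11987 barcodes and 75578147 to 118147393 unique molecular identifiers (UMIs, each standing for 1 captured RNA molecule), and any pair of libraries had 11 to 37 barcodes in common.

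Speer genes (spermatogenesis-associated glutamate-rich proteins) are a rodent family of multicopy genes that arose from a part of Dlg5, a scaffold protein gene, and they are known for expression in testis germ cells. Male germ cells pass from spermatogonia through meiosis as spermatocytes, with a long pachytene stage, and then form haploid round spermatids that elongate while their nucleus is compacted by transition proteins and protamines. Copies of such a family can be so alike that a short read cannot be placed in 1 of them, which bears on every count below.

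All 7 genes are annotated as protein coding and lie on chromosome 5 (GRCm38, the build called mm10 in the submitters' processing notes). On the minus strand lie Gm9758 at 14910122 to 14914899, Speer4e at 14933221 to 14938429, Gm10354 at 14974113 to 14978935, Gm17019 at 15028950 to 15032998 and Gm21190 at 15524456 to 15529222. On the plus strand lie Gm7361 at 26257691 to 26264308 and Gm6408 at 146481965 to 146484704. Each has 5 exons in its longest annotated transcript. Gm21190 is overlapped by Gm21847, an antisense gene that was also counted, and the sources used here do not say whether reads were counted by strand.

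The promoters show how close the copies are and which one stands apart. RefSeq promoters (GRCm38.p6, 250 bases before to 50 bases after the annotated start) were found for all 7 members. Printed here are those of Speer4e, of Gm10354, of Gm7361, which lies apart from the main group on the other strand, and of Gm6408, the most divergent copy. Capitals mark TGATGTCA read on either strand, a motif chosen after the sequences had been seen. It differs in its letters from TGACGTCA, the palindromic cAMP response element.
Speer4e, chr5:14938426-14938725, minus strand: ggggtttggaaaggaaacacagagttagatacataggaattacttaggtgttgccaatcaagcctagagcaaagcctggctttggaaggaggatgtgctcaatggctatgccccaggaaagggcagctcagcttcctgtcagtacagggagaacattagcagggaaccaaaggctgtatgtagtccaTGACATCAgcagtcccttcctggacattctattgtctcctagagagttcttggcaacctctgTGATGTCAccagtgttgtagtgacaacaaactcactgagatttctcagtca
Gm10354, chr5:14978850-14979149, minus strand: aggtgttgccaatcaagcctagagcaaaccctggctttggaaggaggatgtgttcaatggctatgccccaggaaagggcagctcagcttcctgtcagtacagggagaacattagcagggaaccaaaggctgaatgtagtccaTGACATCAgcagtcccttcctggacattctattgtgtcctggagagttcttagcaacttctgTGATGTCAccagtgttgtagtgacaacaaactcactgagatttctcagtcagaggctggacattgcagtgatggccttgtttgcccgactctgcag
Gm7361, chr5:26257512-26257811, plus strand: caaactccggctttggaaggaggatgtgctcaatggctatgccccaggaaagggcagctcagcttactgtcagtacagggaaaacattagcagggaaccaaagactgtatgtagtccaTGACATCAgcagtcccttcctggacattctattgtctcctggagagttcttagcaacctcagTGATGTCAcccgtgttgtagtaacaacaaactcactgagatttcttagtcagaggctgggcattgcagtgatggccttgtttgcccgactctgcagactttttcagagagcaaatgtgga
Gm6408, chr5:146481693-146481992, plus strand: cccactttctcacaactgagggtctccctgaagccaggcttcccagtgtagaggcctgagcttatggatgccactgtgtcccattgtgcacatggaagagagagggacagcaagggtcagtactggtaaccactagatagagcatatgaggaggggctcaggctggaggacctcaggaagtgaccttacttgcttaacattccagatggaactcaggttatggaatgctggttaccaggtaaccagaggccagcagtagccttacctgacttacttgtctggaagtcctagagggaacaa
TGATGTCA stood at 2 places in 6 of the 7 member promoters, in 0 places in the Gm6408 promoter, in 7 of 9 promoters of other Speer genes and in 3.62% of 32851 promoters of the same length. TGACGTCA was in 0 of the 7 (1.79% of all promoters), CCAAT on either strand was in 5 of the 7 (37.4% of all) and TATAAA was in 0 of the 7 (13.6% of all). Between any pair of the 6 members other than Gm6408, aligned promoter bases were 94.8 to 98.8% identical. Gm6408 was 73.3 to 78.5% identical to the other members over the aligned part.

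The transcripts showed the same division. The 6 members other than Gm6408 were 92.5 to 98.5% identical to each other over the aligned part of their longest transcripts, and Gm6408 was 71.4 to 73.8% identical to them. Of all 50-base windows of a member transcript, 40.0% (Gm7361) to 76.1% (Gm21190) were also present, letter for letter, in a transcript of another annotated gene. Over the last 500 bases of the transcript that share was 12.9% in Speer4e, 29.5% in Gm7361, 49.2% in Gm6408, 52.8% in Gm10354, 59.4% in Gm17019, 68.3% in Gm9758 and 86.3% in Gm21190. The sources used here say neither which end of the transcript was read nor how reads that match several copies were counted, so each member's own count is uncertain and a part of it may belong to a copy. The summed members are given beside the single ones for that reason, although the sum can also hold reads of copies outside the 7.

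Over all barcodes, the summed members stood at 0.834 CPM (UMIs scaled to the same library total) at 0 h (63 UMIs), 0.580 CPM at 144 h (65 UMIs), 18.5 CPM at 350.4 h (1780 UMIs), 43.3 CPM at 556.8 h (5110 UMIs) and 81.6 CPM at 763.2 h (9521 UMIs). The counting intervals of the last 3 times did not overlap each other or those of the first 2. From the first time to the last, a member UMI was found in 0.723, 0.659, 6.63, 15.7 and 26.5% of barcodes. These are shares of all barcodes in a whole-testis suspension, so a larger part of cells that hold the RNA and more RNA per cell cannot be told apart at this level.

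Speer4e was at 0 CPM at 0 h (0 of 8159 barcodes, which allows a share of up to 0.0368%), 0.00892 CPM at 144 h, 2.77 CPM at 350.4 h, 5.66 CPM at 556.8 h and 10.3 CPM at 763.2 h. Gm10354 was at 0 CPM at 0 and 144 h, 3.32 CPM at 350.4 h, 8.55 CPM at 556.8 h and 17.7 CPM at 763.2 h. Gm17019 was at 0.0265 CPM at 0 h, 0 CPM at 144 h, 2.77 CPM at 350.4 h, 6.85 CPM at 556.8 h and 13.7 CPM at 763.2 h. These 3 copies were nearly without counts in the first pair of libraries and had their highest level at 763.2 h. Gm9758 had 0.0397 CPM at 0 h, 0 CPM at 144 h, 2.10 CPM at 350.4 h, 5.16 CPM at 556.8 h and 10.3 CPM at 763.2 h. Gm6408, the divergent copy, had 0.0132 CPM at 0 h, 0 CPM at 144 h, 1.33 CPM at 350.4 h, 4.15 CPM at 556.8 h and 5.28 CPM at 763.2 h. The order of the times was the same in both.

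Gm21190 and Gm7361 differed from the rest at the early times. Gm21190 had 11 UMIs at 0 h (0.146 CPM) and 39 UMIs at 144 h (0.348 CPM), then 4.28 CPM at 350.4 h, 8.41 CPM at 556.8 h and 13.0 CPM at 763.2 h. Gm7361 had 46 UMIs at 0 h (0.609 CPM) and 25 UMIs at 144 h (0.223 CPM), then 1.91 CPM at 350.4 h, 4.47 CPM at 556.8 h and 11.3 CPM at 763.2 h. Nearly all member UMIs of the first pair of libraries were thus counted to these 2 genes, which are the members with the largest and the second smallest share of shared windows in their last 500 bases.

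**Figure D1:**
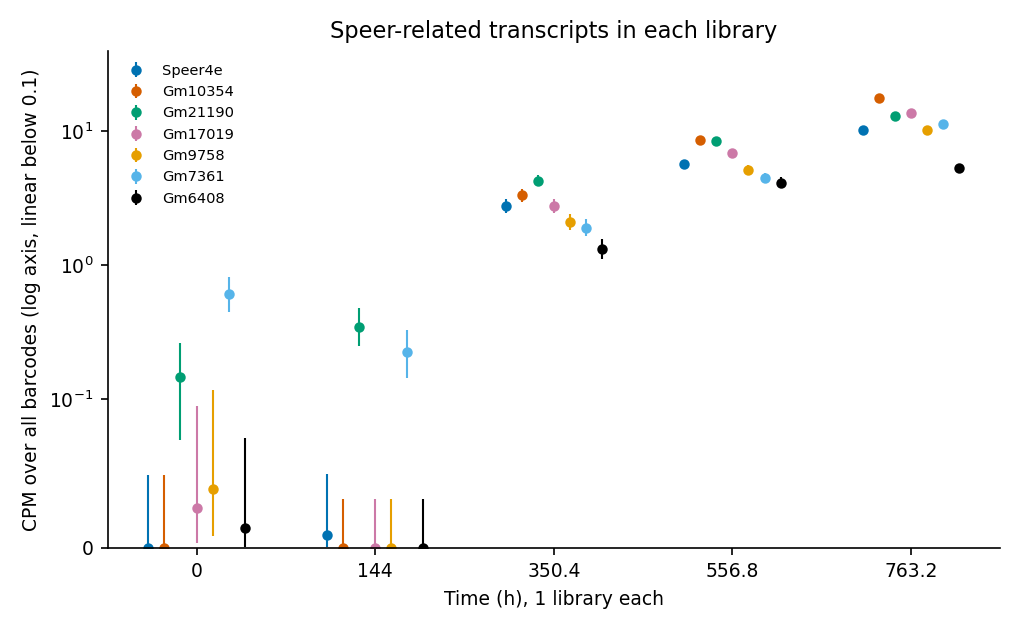
CPM of each member (colours) over all barcodes of the library of each time (x axis, h; y axis logarithmic above 0.1 CPM), with exact Poisson 95% intervals for counting error. Every member is below 1 CPM at 0 and 144 h and between 1.33 CPM (Gm6408 at 350.4 h) and 17.7 CPM (Gm10354 at 763.2 h) afterwards.

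For the levels by cell type, 4695 to 11036 cells per library were kept and clustered without the Speer genes, the other members and the mitochondrial genes. Sertoli-like cells, which mark the tissue, numbered 2603, 1862, 556 and 47 at 0, 144, 350.4 and 556.8 h and fewer than 20 at 763.2 h. A cluster is named like a cell type only from marker genes, and 76.98% of kept cells at 350.4 h, 16.8% at 556.8 h and 69.6% at 763.2 h were germ cells whose cluster earned no stage name. Of the 65 clusters, 5 were named pachytene-or-later-spermatocyte-like and 1, cluster 46, round-spermatid-like. The naming rule was set after member levels had been seen beside the marker scores, so the stage names are part of the description.

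Every one of the 7 members had its highest level in cluster 45, its next highest in cluster 46 and the one after that in cluster 36, over all libraries. The summed members had 1352 CPM in cluster 45 (850 cells), 595 CPM in cluster 46 (1101 cells) and 268 CPM in cluster 36 (364 cells). Cluster 45 held 22.9% (Gm7361) to 37.8% (Gm6408) of a member's UMIs in kept cells. The 3 clusters were singled out here because the members led in them.

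Cluster 45 is made of germ cells without a stage name. Its leading genes, Gm5565, 4921504E06Rik, Lrriq1, Gm4181, Iqca, Gm8126 and Ttn among them, include none of the stage markers. Pachytene-or-later markers scored highest there, at 0.42 of their level in the cluster where each peaks, and round spermatid markers came next at 0.21. Its cells had a median of 3350 UMIs and a median mitochondrial share of 13.6%. Cluster 46 was led by Prr27, Pdilt, Acrv1 and Spaca1, the last pair genes of the acrosome, with a median of 2876 UMIs and 3.01% mitochondrial UMIs. Cluster 36 belongs to the pachytene-or-later-like class and was led by 1700001F09Rik, Dydc1 and Ccna1, the cyclin of male meiosis. Its cells were the deepest of the 3, with a median of 28202 UMIs and a mitochondrial share of 1.66%. Depth and mitochondrial share thus differ between the 3 clusters together with the member levels, and their part in the levels was not tested.

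Stage markers were shared between the 3 clusters. The 13 round spermatid markers summed to 3343 CPM in cluster 45 at 350.4 h, 1784 CPM at 556.8 h and 2318 CPM at 763.2 h, and to 12143, 6883 and 8791 CPM in cluster 46 at the same times. The 13 pachytene-or-later markers summed to 1676, 2945 and 2537 CPM in cluster 45 at 350.4, 556.8 and 763.2 h and to 4482, 4717 and 4524 CPM in cluster 36. Cluster 45 thus had fewer round spermatid marker UMIs than cluster 46 and fewer pachytene-or-later marker UMIs than cluster 36 at each time. The 13 elongating spermatid markers, protamines and transition proteins among them, summed to 1535, 18816 and 21101 CPM in cluster 45. They summed to 12372, 23401 and 25488 CPM in cluster 46 and to 634, 3170 and 2800 CPM in cluster 36. Cluster 45 was thus below cluster 46 and above cluster 36 in these markers at each time. In cluster 45 at the last pair of times 0 of the 13 were without a UMI. The 13 Sertoli markers summed to 606, 194 and 181 CPM in cluster 45, with 4, 2 and 2 of the 13 at 0. The part of these markers in the member levels was not tested. Copies related in sequence were left in the clustering, and 2 of them lead cluster 45: Gm10220 shares a 50-base window with 6 members and Gm5565 with Gm6408.

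By library, the summed members in cluster 45 stood at 2746 CPM (2458 to 3058) in the 31 cells of 350.4 h, 1334 CPM (1277 to 1393) in the 377 cells of 556.8 h and 1265 CPM (1211 to 1322) in the 442 cells of 763.2 h. In cluster 46 the summed members stood at 1019 CPM (900 to 1150) in 75 cells of 350.4 h, 837 CPM (768 to 911) in 159 cells of 556.8 h and 499 CPM (473 to 526) in 867 cells of 763.2 h. In cluster 36 the summed members were at 273 CPM (232 to 320) in 70 cells of 350.4 h, 266 CPM (249 to 283) in 94 cells of 556.8 h and 268 CPM (256 to 281) in 200 cells of 763.2 h. The order of the clusters was the same at all 3 times. The cells of cluster 36 at 350.4 h were far shallower than the others of that cluster, with a median of 1636 UMIs against 34212 at 556.8 h and 28524 at 763.2 h, and their level rests on few cells: the median cell had 0 member UMIs, and 1 cell held 56 of the 157.

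In cluster 45 Speer4e had 431 CPM at 350.4 h, 165 CPM at 556.8 h and 164 CPM at 763.2 h, and in cluster 36 it had 31.3, 32.6 and 32.5 CPM at the same times. Gm10354 had 581 CPM at 350.4 h, 278 CPM at 556.8 h and 284 CPM at 763.2 h in cluster 45, and 43.5, 52.7 and 51.8 CPM in cluster 36. Gm21190 had 556 CPM at 350.4 h, 287 CPM at 556.8 h and 232 CPM at 763.2 h in cluster 45, and 57.5, 54.4 and 54.7 CPM in cluster 36. Each of these 3 members was level between 556.8 and 763.2 h in cluster 36 and was highest in the few cluster 45 cells of 350.4 h. Gm17019 had 357, 212 and 195 CPM in cluster 45 at 350.4, 556.8 and 763.2 h, Gm9758 had 290, 148 and 134 CPM, and Gm7361 had 249, 113 and 146 CPM. Gm6408 had 282 CPM at 350.4 h, 131 CPM at 556.8 h and 111 CPM at 763.2 h in cluster 45, and 34.8, 25.03 and 18.1 CPM in cluster 36. The first time was thus the highest for all 7 in cluster 45, over 31 cells.

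**Figure D2:**
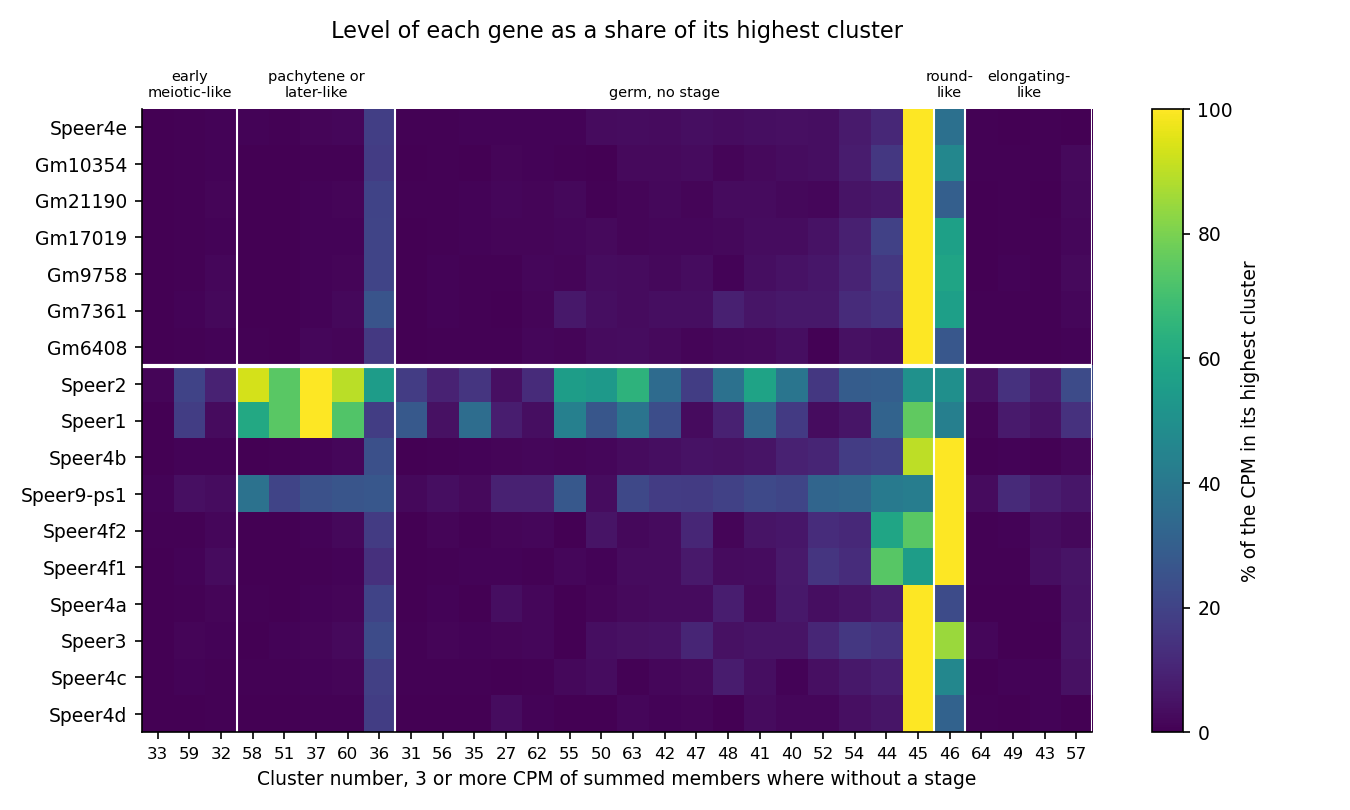
Level of each gene (rows: the 7 members above the white line, the other Speer genes with at least 500 UMIs below it) in each germ cell cluster (columns, by number, grouped by the class the markers gave), as % of the CPM in the cluster where that gene is highest. Every member is highest in cluster 45 and next highest in cluster 46, whereas Speer2 and Speer1 are highest in cluster 37.

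The proportions of the members were compared between the 3 clusters, and intervals lay apart for fewer members at 556.8 h than at 763.2 h. Clusters 46 and 36 held 537 and 987 member UMIs at 556.8 h against 1369 and 1864 at 763.2 h. Their intervals were thus wider at 556.8 h, and these counts do not show at which time the proportions were closer. Gm9758 made up 11.1, 15.1 and 10.6% in clusters 45, 46 and 36 at 556.8 h, with overlapping intervals. At 556.8 h Gm21190 was the one member whose intervals lay apart between any pair of clusters. At 763.2 h this was so for 5 of 7 members, and the intervals of Speer4e and Gm7361 overlapped in all 3 clusters. Gm10354 made up 20.9% of the summed member UMIs in cluster 45 at 556.8 h (interval 19.1 to 22.7%), 21.6% in cluster 46 and 19.9% in cluster 36. Speer4e made up 12.3% in cluster 45, 10.4% in cluster 46 and 12.3% in cluster 36 at that time. Those 2 members had overlapping intervals in all 3 clusters at 556.8 h. Gm21190 made up 21.5% (19.8 to 23.4%) in cluster 45, 14.9% (11.99 to 18.2%) in cluster 46 and 20.5% (18.0 to 23.1%) in cluster 36, and at 763.2 h it made up 18.3, 12.2 and 20.4% in the same order. Its share was lowest of the 3 in the round-spermatid-like cluster at both times. The interval there lay apart from that of cluster 45 at both times and from that of cluster 36 at 763.2 h, while at 556.8 h it overlapped that of cluster 36. At 763.2 h Gm10354 made up 24.4% (22.1 to 26.8%) in cluster 46 and 19.3% (17.5 to 21.2%) in cluster 36. Gm17019 made up 15.4% (13.9 to 17.1%) in cluster 45 and 19.7% (17.6 to 21.9%) in cluster 46 at that time, and Gm9758 10.6% (9.26 to 11.99%) and 13.95% (12.2 to 15.9%) in the same order. Gm6408 made up 9.84, 8.38 and 9.42% of the summed members in clusters 45, 46 and 36 at 556.8 h and 8.79, 5.41 and 6.76% at 763.2 h, when cluster 45 (7.59 to 10.1%) lay above cluster 46 (4.27 to 6.74%).

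Cluster 45 was a small part of each library that held a large part of the member RNA. It held 29.0% of the member UMIs of kept cells in 0.660% of the cells at 350.4 h, 43.2% in 4.49% of the cells at 556.8 h and 23.1% in 4.01% of the cells at 763.2 h. Cluster 46 held 23.1, 11.3 and 15.6% of them at these times, and cluster 36 held 13.8, 20.9 and 21.3%.

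Single cells were compared after each was thinned to 1000 UMIs, which left out no kept cell because 1000 UMIs was also the limit for keeping one. In cluster 45 a member UMI remained in 90.3% of cells at 350.4 h (74.2 to 98.0%), in 71.6% of cells at 556.8 h (66.8 to 76.1%) and in 69.9% of cells at 763.2 h (65.4 to 74.2%). Cluster 46 had 65.3, 56.6 and 35.8% at the same times, and cluster 36 had 10.0, 26.6 and 27.0%. The clusters stood in the order of their CPM. The thinning is random, and the draw behind the shares by cell type gave 61.3, 53.5 and 35.5% for the same cells of cluster 46. Unthinned, a member UMI was present in 93.5, 96.6 and 95.02% of cluster 45 cells and in 100% of the 94 cluster 36 cells at 556.8 h and of the 200 at 763.2 h, whose median depth was far higher.

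Somatic-like cells gave a level to compare with, although they were not free of member counts at the early times. Unthinned, a member UMI was present in 12 of 332 Leydig-like and 20 of 2603 Sertoli-like cells at 0 h. At 144 h it was present in 24 of 1862 Sertoli-like cells. Where these counts came from was not tested. Among Sertoli-like cells, a member UMI remained after thinning in 1.98% of 556 cells at 350.4 h (median depth 1433 UMIs, 9.05 CPM) and in 0 of 47 cells at 556.8 h, which allows a share of up to 6.38% (median depth 25969 UMIs, 1.71 CPM). At 763.2 h 2 of 46 peritubular-myoid-like cells (4.35%, median depth 6011 UMIs) and 3 of 26 macrophage-like cells (11.5%, median depth 3826 UMIs, 11 member UMIs and 116 CPM) had one, and in the other draw 0 of the same 46 peritubular-myoid-like cells had one. The shares in clusters 45 and 46 lay above these. The share in cluster 36 was above them at 556.8 and 763.2 h. At 763.2 h, however, its interval (21.0 to 33.7%) overlapped that of the 26 macrophage-like cells (2.45 to 30.2%). At 350.4 h its share lay within the interval of the 28 macrophage-like cells of that time (3.57%, 0.0904 to 18.3%). Elongating-spermatid-like cells had a share of 1.22% at 556.8 h and 1.23% at 763.2 h, while their level of 6.89 CPM at 556.8 h was above the 1.71 CPM of Sertoli-like cells, which rests on 2 UMIs. Cluster 51 of the pachytene-or-later-like class had 0.862% at 556.8 h and 0 of 111 cells at 763.2 h, which allows up to 2.70%.

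In cluster 45 the middle of the cells lay close together at the last pair of times. The median cell had 3001 CPM of summed members at 350.4 h, 1223 CPM at 556.8 h and 1261 CPM at 763.2 h, and the quartiles were 730 and 1895 CPM at 556.8 h and 714 and 1765 CPM at 763.2 h. A median of 5 member UMIs per cell lay behind the values of 556.8 h and of 4 behind those of 763.2 h. In cluster 36 the median cell had 268 CPM at 556.8 h and 270 CPM at 763.2 h, from a median of 9 and 8 member UMIs. At 350.4 h it had 0 CPM and the upper quartile was 52.9 CPM. In cluster 46 the median cell had 856 CPM at 350.4 h, 690 CPM at 556.8 h and 377 CPM at 763.2 h. The spread within the 3 clusters thus covered several fold, at a few UMIs per cell.

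**Figure D3:**
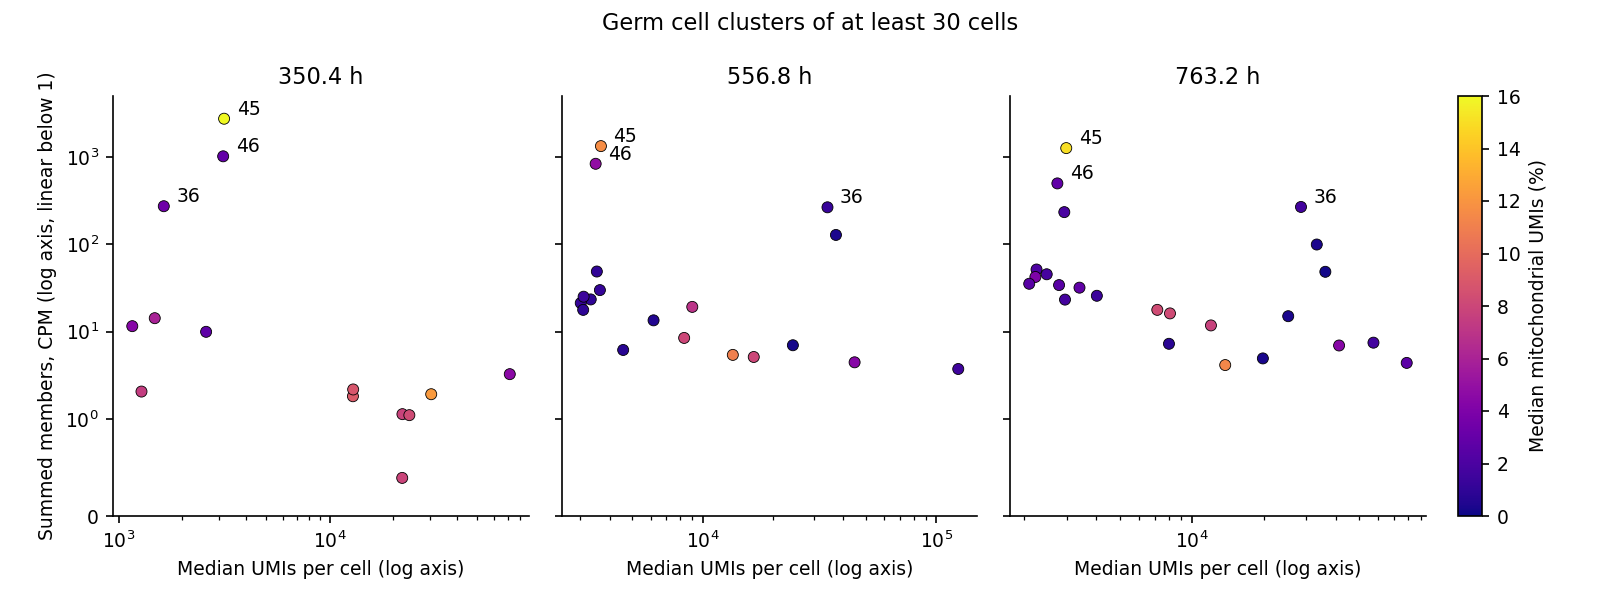
Summed members in CPM (y axis, logarithmic above 1) against the median UMIs per cell (x axis, logarithmic) for each germ cell cluster of at least 30 cells, 1 panel per time, coloured by the median mitochondrial share of the cluster. Cluster 45 is the highest point in each panel, at 1265 to 2746 CPM, with a median depth of 2993 to 3671 UMIs and one of the higher mitochondrial shares, and cluster 36 lies at 266 to 273 CPM, although at 350.4 h its median cell had 0 CPM and 1 cell held 56 of its 157 member UMIs.

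The planned comparison of stages set round-spermatid-like cells against pachytene-or-later-like cells of the same library, with classes named by the rule described above. Cluster 45, where every member was highest, has no stage name and is in neither class. It held 43.2% of the member UMIs of kept cells at 556.8 h and 23.1% at 763.2 h. The ratios below therefore compare the named classes and do not place the peak of the members. All 7 members were at least 2-fold higher in round-spermatid-like cells at 556.8 h, where 32.9% of 14317 features tested were (26.9% were lower), and again at 763.2 h, where 31.7% of 13070 were (31.4% lower). A feature counted as tested when the 2 sums held at least 20 UMIs together. The summed members were at 837 CPM in round-spermatid-like cells against 22.1 CPM in pachytene-or-later-like cells at 556.8 h, a ratio of 37.8 (34.2 to 41.8). At 763.2 h they were at 499 CPM in round-spermatid-like cells against 82.2 CPM in pachytene-or-later-like cells, a ratio of 6.07 (5.66 to 6.50). Single members had ratios of 25.5 (Speer4e) to 53.2 (Gm9758) at 556.8 h and of 3.68 (Gm21190) to 7.66 (Gm10354) at 763.2 h. With kept cells limited to under 10% mitochondrial UMIs, and clustered and named again, the direction was the same. The round-spermatid-like level at 556.8 h was then 216 CPM and the pachytene-or-later-like level 10.7 CPM. Of the 362 cells of cluster 36 that remained, 227 fell in 1 cluster without a stage name, outside the pachytene-or-later-like class. The makeup of that class thus changed along with the limit, and the part of the limit itself was not tested.

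All 7 members were at least 2-fold lower in elongating-spermatid-like cells than in round-spermatid-like cells at 556.8 h, where 51.9% of features tested were (18.0% were higher), and at 763.2 h, where 67.7% were (9.18% higher). The summed members were at 6.89 CPM in elongating-spermatid-like cells against 837 CPM in round-spermatid-like cells at 556.8 h, a ratio of 0.00824 (0.00663 to 0.0102). With kept cells limited to under 10% mitochondrial UMIs, and clustered and named again, that ratio was 0.0501. Only 2 members then had the 20 UMIs needed, Gm10354 and Gm17019, both lower at 556.8 h, a count given without the share of all features. At 763.2 h the values were 7.62 CPM in elongating-spermatid-like cells and 499 CPM in round-spermatid-like cells, a ratio of 0.0153 (0.0123 to 0.0187). The elongating level at 763.2 h was below the 15.3 CPM of peritubular-myoid-like cells (4 UMIs), and that at 556.8 h was above the 1.71 CPM of Sertoli-like cells (2 UMIs). Before pachytene the members were low as well, with 0.392 CPM at 350.4 h, 8.57 CPM at 556.8 h and 15.3 CPM at 763.2 h in early-meiotic-spermatocyte-like cells.

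Gene lists chosen for late germ cells gave the setting of these ratios. Of the multicopy and sex-linked spermatid genes, 12 of 13 tested were at least 2-fold higher in round-spermatid-like than in pachytene-or-later-like cells at 556.8 h and 11 of 13 at 763.2 h. Cypt4, which encodes a protein of the perinuclear theca, was at 855 CPM in round-spermatid-like cells against 102 CPM in pachytene-or-later-like cells at 556.8 h, and Slxl1, an X-linked gene of the Slx family, at 366 CPM against 39.1 CPM in the same order. Of 15 genes of cytosolic ribosomal proteins 0 were higher and 4 were lower at 556.8 h, and 0 were higher and 6 lower at 763.2 h. Rpl13 was at 1512 CPM in round-spermatid-like cells against 2545 CPM in pachytene-or-later-like cells at 556.8 h. The median log2 ratio at 556.8 h was 5.30 for the 7 members, 4.98 for the 10 other Speer genes tested, 3.06 for the multicopy and sex-linked spermatid genes (1 of them, with no UMI in 1 of the sets, entered at its bound of 3 counts), −0.75 for the ribosomal protein genes and 0.51 for all features tested. At 763.2 h these medians were 2.57, 2.49, 2.67, −0.93 and −0.34, so the members lay close to the other Speer genes and the spermatid genes.

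Within the pachytene-or-later-like class the members were concentrated in 1 cluster. In cluster 36 the summed members were at 266 CPM against 7.82 CPM in the other clusters of the class at 556.8 h, a ratio of 33.9 (30.4 to 37.9), and at 268 CPM against 6.02 CPM at 763.2 h, a ratio of 44.6 (36.5 to 54.9). All 7 members were at least 2-fold higher at both times, where 17.4 and 19.2% of features tested were. Cluster 36 was singled out for its member levels, so this count and the ratios describe the choice. At 350.4 h there were 157 member UMIs in the 70 cells of cluster 36 against 3 UMIs in the 23 cells of the other clusters of the class, a ratio of 130 (43.8 to 638), with 56 of the 157 UMIs in 1 cell and the median cell at 0. Speer4e, at 32.6 CPM in cluster 36 against 1.71 CPM in the others, had the lowest ratio at 556.8 h, 19.1, and Gm7361, at 30.9 CPM against 0.616 CPM, had the highest, 50.2. At 763.2 h the ratios of single members ran from 22.0 (Speer4e) to 61.8 (Gm21190).

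Between the last pair of times the answer depended on which of these cells were compared. Over the whole pachytene-or-later-like class the summed members were at 82.2 CPM at 763.2 h against 22.1 CPM at 556.8 h, a ratio of 3.72 (3.47 to 3.98), and all 7 members were at least 2-fold higher, where 8.38% of features tested were and 6.26% were lower. In cluster 36 alone they were at 268 CPM at 763.2 h against 266 CPM at 556.8 h, a ratio of 1.009 (0.934 to 1.09), and 0 of 7 members passed 2-fold in either direction (2.15% of features higher and 1.07% lower). In the other clusters of the class they were at 6.02 CPM at 763.2 h against 7.82 CPM at 556.8 h, a ratio of 0.769 (0.615 to 0.953), with 0 members higher (1.14% of features) and 1 lower, Gm6408 at 0.354 CPM against 0.996 CPM (9.42% of features). Cluster 36 made up 200 of 461 cells of the class at 763.2 h and 94 of 4548 at 556.8 h. The class ratio thus moved with the makeup of the class. The split by cluster was chosen after the data had been seen.

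In cluster 45 the summed members were at 1265 CPM at 763.2 h against 1334 CPM at 556.8 h, a ratio of 0.949 (0.892 to 1.009), with 0 of 7 members past 2-fold (3.42% of features higher, 2.81% lower). Single members there ran from 0.807 (Gm21190) to 1.29 (Gm7361). In round-spermatid-like cells the summed members were at 499 CPM at 763.2 h against 837 CPM at 556.8 h, a ratio of 0.596 (0.539 to 0.660). With cells limited to under 10% mitochondrial UMIs, and clustered and named again, the order turned round. It was then 314 CPM at 763.2 h against 216 CPM at 556.8 h, a ratio of 1.46 (1.14 to 1.89). The class then held 72 cells at 556.8 h, while in the main run 81 of its cells at that time had under 5%. The makeup of the class thus changed along with the limit, and the part of the limit itself was not tested. Without that limit 2 of the 7 were at least 2-fold lower, Gm21190 with 60.9 CPM at 763.2 h against 124.7 CPM at 556.8 h and Gm6408 with 27.0 CPM against 70.1 CPM, where 6.55% of features were (7.72% were higher). Both turned round in the run with the limit, which held other cells in the class, to ratios of 1.28 and 1.18. In elongating-spermatid-like cells 0 of the 6 members with enough UMIs passed 2-fold (1.27% of features higher, 29.9% lower), with 7.62 CPM at 763.2 h against 6.89 CPM at 556.8 h for the sum.

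**Figure D4:**
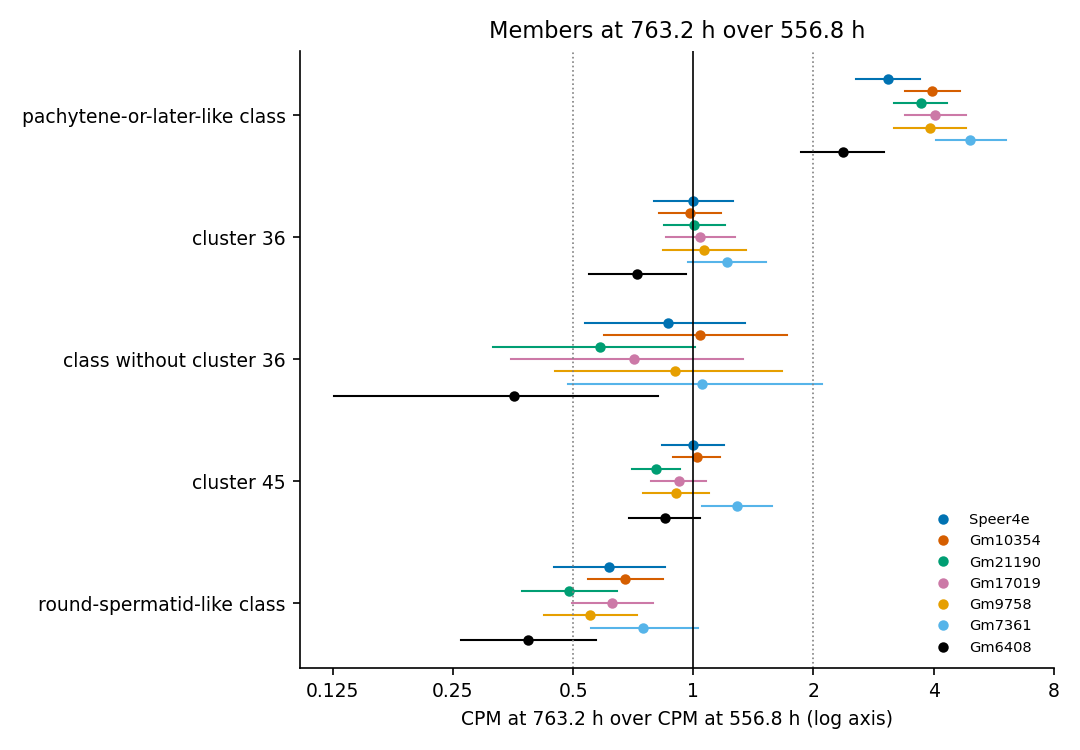
Ratio of CPM at 763.2 h to CPM at 556.8 h (x axis, logarithmic) for each member (colours) in 5 sets of cells (rows), with exact 95% intervals for counting error; dotted lines mark 2-fold. The 7 members lie between 2.37 and 4.95 in the whole pachytene-or-later-like class, and between 0.724 and 1.21 in its cluster 36.

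Set against cluster 36 of the same library, cluster 45 had all 7 members at least 2-fold higher, at 556.8 h (23.7% of features tested, with 3.80% lower) and at 763.2 h (25.7%, with 6.32% lower). The summed members were at 1334 CPM in cluster 45 against 266 CPM in cluster 36 at 556.8 h, a ratio of 5.02 (4.65 to 5.42), and at 1265 CPM against 268 CPM at 763.2 h, a ratio of 4.72 (4.43 to 5.03). Single members had ratios of 3.65 (Gm7361) to 5.28 (Gm21190) at 556.8 h and of 3.88 (Gm7361) to 6.14 (Gm6408) at 763.2 h. Against cluster 46 the summed members of cluster 45 were 1.59 times as high at 556.8 h (1.45 to 1.76), with 1 of 7 members past 2-fold (11.3% of features), and 2.54 times as high at 763.2 h (2.37 to 2.72), with 5 of 7 (15.9%). All clusters compared here were picked for their member levels, so these counts describe the choice.

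On the list of RNAs known to be held in the nucleus, all 3 that could be tested were at least 2-fold higher in cluster 45 at both times. Kcnq1ot1, an imprinted noncoding RNA, was at 403 CPM in cluster 45 against 53.3 CPM in cluster 36 at 556.8 h and at 564 CPM against 78.0 CPM at 763.2 h. Malat1, an abundant nuclear noncoding RNA, was at 1016 CPM in cluster 45 against 455 CPM in cluster 36 at 556.8 h, and Neat1, the RNA of paraspeckles, at 29.4 CPM against 5.11 CPM. Against cluster 46, 1 of the 3 was at least 2-fold higher in cluster 45, 1 lower and 1 between at both times. Kcnq1ot1 was higher, at 403 CPM in cluster 45 against 190 CPM in cluster 46 at 556.8 h and at 564 CPM against 216 CPM at 763.2 h, and Malat1 was lower, at 1016 CPM against 3257 CPM at 556.8 h. Of the 15 ribosomal protein genes 0 passed 2-fold between clusters 45 and 36, with median log2 ratios of −0.40 at 556.8 h and −0.68 at 763.2 h beside 0.18 over all features at both times. Of the genes that answer to tissue dissociation 2 of 4 tested were higher and 1 lower in cluster 45 than in cluster 36 at 556.8 h, and 2 of 5 higher and 1 lower at 763.2 h. Jund, a subunit of the AP-1 factor, was at 45.7 CPM in cluster 45 against 7.27 CPM in cluster 36 at 556.8 h, and Dnajb1, a heat shock co-chaperone, at 326 CPM against 682 CPM. How these RNAs relate to the members was not tested.

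Member levels differed with the mitochondrial share of the cells, and were higher at 10 to 20% in round-spermatid-like cells and in cluster 45. In round-spermatid-like cells at 763.2 h the summed members were at 1023 CPM of non-mitochondrial UMIs in cells of 10 to 20% mitochondrial UMIs against 403 CPM in cells of under 5%, a ratio of 2.54 (2.21 to 2.91), and 6 of 7 members were at least 2-fold higher (11.0% of features). Gm21190 had the highest ratio, 5.15, with 179 CPM against 34.8 CPM, and Speer4e the lowest, 1.82. At 556.8 h the ratio was 1.52 (1.20 to 1.90), over 29 cells against 81, and 1 of 7 passed 2-fold, Gm6408 (6.84% of features, with 9.27% lower). In cluster 45 cells of 10 to 20% were compared with those of under 10%, and the ratio was 1.42 (1.29 to 1.56) at 556.8 h with 0 of 7 past 2-fold (4.92% of features higher, 1.06% lower), and 2.29 (1.95 to 2.71) at 763.2 h with 6 of 7 (11.0% higher, 1.90% lower).

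In the pachytene-or-later-like class the sets of high and low mitochondrial share came from different clusters. At 763.2 h 29 of the 31 cells of 10 to 20% mitochondrial UMIs were of cluster 51, while 196 of the 418 cells of under 5% were of cluster 36 and held 1854 of the 1953 member UMIs of that set. The ratios of the class therefore also compare clusters. There were 6 member UMIs in the 31 cells of 10 to 20% mitochondrial UMIs, against 1953 in the 418 cells of under 5%, a ratio of 0.211 (0.0775 to 0.461), and 4 of the 6 lay in 1 cell of cluster 36. Outside cluster 36 the levels at 763.2 h were 6.20 CPM (0.751 to 22.4) in the 30 cells of 10 to 20%, from 2 UMIs, against 6.18 CPM (5.02 to 7.52) in the 222 cells of under 5%. Over the whole class, at least 2-fold lower were 6 of 7 members (18.3% of features, with 20.1% higher), 3 of them, Speer4e, Gm9758 and Gm6408, with 0 UMIs in the first set. At 556.8 h the ratio was 0.807 (0.598 to 1.07), and 3 members, Speer4e, Gm7361 and Gm6408, were at least 2-fold lower (4.72%). Outside cluster 36 the levels at 556.8 h stood the other way, at 16.8 CPM (12.3 to 22.3) in 378 cells of 10 to 20% against 7.21 CPM (6.54 to 7.94) in 3964 cells of under 5%. Within cluster 51 alone they were 16.9 CPM (11.9 to 23.1, 38 UMIs) in cells of 10 to 20% against 3.03 CPM (2.26 to 3.98, 52 UMIs) in cells of under 5%. The order of the class also turned round with deeper cells. When only cells of at least 5000 UMIs were clustered, 86 of the 97 cells that remained of cluster 45 and 289 of the 304 of cluster 36 fell in 1 cluster of 391 cells named pachytene-or-later-like, and the ratio of the summed members in the class was 39.6 at 556.8 h and 19.0 at 763.2 h, with 7 of 7 members higher. The sets held 56 against 2275 cells at 556.8 h and 29 against 405 at 763.2 h. The share of all features past 2-fold is not given for them, so the 7 of 7 stands without a background.

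Member levels differed less with the number of UMIs per cell. Cells of 1000 to under 4000 UMIs had 0.918 times the summed member level of deeper cells in the pachytene-or-later-like class at 556.8 h (0.728 to 1.15), with 0 of 7 past 2-fold (18.3% of features higher, 4.17% lower). In round-spermatid-like cells the ratio was 0.754 (0.634 to 0.896) at 556.8 h, with 1 of 7 at least 2-fold lower, Gm7361 (3.87% of features, with 2.66% higher), and 0.825 (0.735 to 0.927) at 763.2 h, with 0 of 7 (3.15% higher, 2.58% lower). In cluster 45 the ratio was 1.013 at 556.8 h and 1.15 at 763.2 h, with 0 of 7 in either (1.54% of features higher and 1.58% lower at 556.8 h, 2.48% and 4.38% at 763.2 h).

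Without any cells removed, member levels over all barcodes peaked at an intermediate mitochondrial share in the last pair of libraries. At 556.8 h the summed members were at 26.0 CPM of non-mitochondrial UMIs in barcodes of under 2% mitochondrial UMIs, 25.1 CPM at 2 to 5%, 78.0 CPM at 5 to 10%, 211 CPM at 10 to 20%, 42.7 CPM at 20 to 50% and 55.1 CPM at 50% or more. At 763.2 h the same bins held 69.04, 53.2, 65.2, 432, 178 and 0 CPM. At 350.4 h the bins held 104, 8.03, 6.25, 39.4, 84.2 and 18.4 CPM, with the highest value in the lowest bin. Barcodes of 2000 to 4000 UMIs with 10 to 20% mitochondrial UMIs had 612 CPM at 350.4 h, 947 CPM at 556.8 h and 881 CPM at 763.2 h, and those of at least 16000 UMIs in the same bin had 5.01, 6.22 and 57.9 CPM. Of the depths in that bin, 2000 to 4000 UMIs had the highest level at each time. Shallower barcodes of the bin were lower. At 350.4 h those of under 1000 and of 1000 to 2000 UMIs had 28.4 and 30.8 CPM. At 763.2 h those of 1000 to 2000 UMIs had 186 CPM. Other mitochondrial shares did not all have this order. At 763.2 h barcodes of under 2% had 75.2 CPM at 2000 to 4000 UMIs and 92.2 CPM at 4000 to 8000 UMIs.

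**Figure D5:**
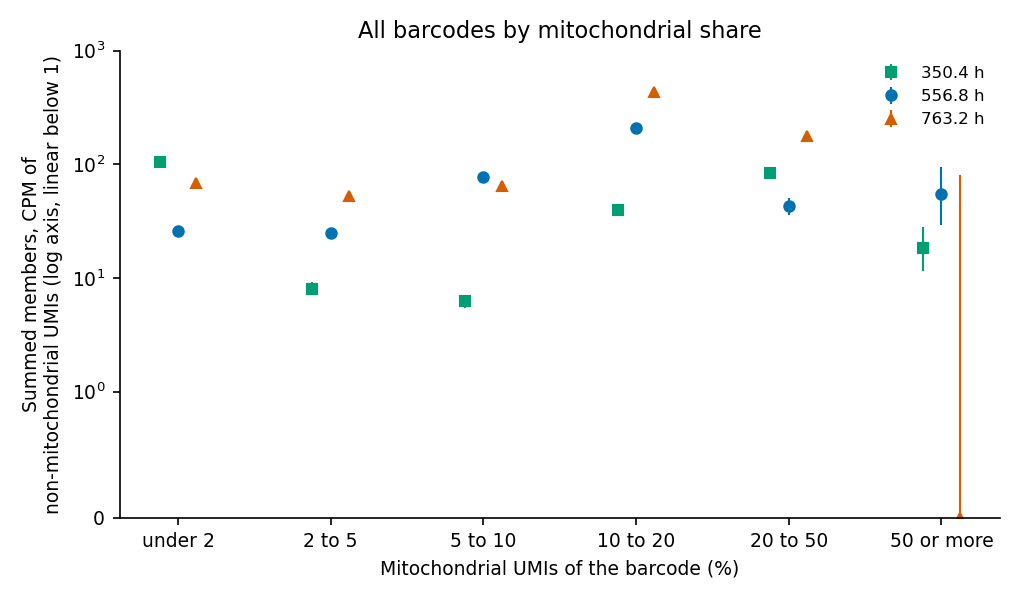
Summed members over all barcodes, as CPM of non-mitochondrial UMIs (y axis, logarithmic above 1), by the mitochondrial share of the barcode (x axis, %) at 350.4, 556.8 and 763.2 h (colours), with exact Poisson 95% intervals for counting error. At 556.8 and 763.2 h the bin of 10 to 20% is the highest, at 211 and 432 CPM.

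Other Speer genes did not all share the profile of the members. Speer2, the one with most UMIs in kept cells (27144), had its highest level in cluster 37 of the pachytene-or-later-like class, with 235 CPM, followed by clusters 58 and 60 of that class with 220 and 210 CPM. Only 1.42% of its UMIs lay in cluster 45. Speer1 was also highest in cluster 37, with 32.5 CPM, and had 24.6 CPM in cluster 45. Both were within 2-fold between round-spermatid-like and pachytene-or-later-like cells, Speer2 at a ratio of 0.737 at 556.8 h and 0.654 at 763.2 h and Speer1 at 0.929 and 0.915. Speer4b was highest in cluster 46, with 131 CPM, and had 118 CPM in cluster 45. Speer4f2 followed the same order, with 114 CPM in cluster 46 and 84.5 CPM in cluster 45, and so did Speer9-ps1, the one Speer feature on chromosome 7, with 38.4 and 16.3 CPM. Of the others, Speer3, Speer4a, Speer4c and Speer4d were highest in cluster 45, Speer4f1 in cluster 46, and Speer4cos, antisense to Speer4c, had 39 UMIs in all.

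Genes that share sequence with the members were counted in the same cells. A search of the annotated transcripts, made after the data had been seen, found 13 counted genes outside the Speer symbols that share a 50-base window with at least 6 of the members, and all 13 had their highest level in cluster 45. Gm10220 had 101 CPM in cluster 45 and 32.7 CPM in cluster 46, Gm21149 had 94.7 and 27.99 CPM, and Gm21680 had 70.7 and 24.4 CPM. Their counts and those of the members cannot be told apart where the windows are identical. These copies were also left in the clustering, and Gm10220 is among the leading genes of cluster 45. The shared peak is therefore not independent of the clustering or of the choice by sequence.

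By the likeness of their profile over 57 sums of germ cell clusters by library, the 12 genes most like the summed members among 14865 were Gm5591 (Spearman's rho 0.94), 4921504E06Rik, Gm5458, Spdye4c, Cldn34b2, Gm8362, Prss46, Gm5797, Iqca, Fancd2os, A930018P22Rik and Kcnu1 (0.90). The sums share libraries and differ in depth, so rho is a description. Of these, Gm5591, 4921504E06Rik and Iqca had their highest level in cluster 45, with 83.6, 263 and 145 CPM. Spdye4c, Cldn34b2, Prss46, a testis serine protease, Fancd2os and Kcnu1, the potassium channel of sperm, were highest in cluster 46, Gm5458, Gm8362 and Gm5797 in cluster 36, and A930018P22Rik in cluster 54. Only Gm5591 and Iqca stayed among the 12 by Pearson's r, and 5 of the 12 stayed with clusters of at least 100 cells.

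In cluster 45 the presence of 1 member went with a higher share of cells with another in most cases, with overlapping intervals. Overlap alone does not put a difference within counting error, and the differences were not tested. The comparisons of the members also reuse the same cells. In thinned cells at 556.8 h, another member was present in 67.4% (Gm10354) to 78.9% (Speer4e) of cells with a given member and in 59.8 to 66.3% of cells without it. At 763.2 h the shares were 59.5% (Gm6408) to 78.7% (Gm9758) with and 59.6 to 66.0% without. The share with was above the share without in 13 of the 14 cases, and the intervals overlapped in all 14. In cluster 46 it was above in 13 of 14 as well, with intervals apart in 1, Gm10354 at 763.2 h, where another member was present in 45.98% of cells with it (35.2 to 57.0%) and in 26.5% without it (23.5 to 29.8%). In cluster 36, where 1 to 11 cells had a given member, it was above in 9 of 14 and below in 5, with intervals overlapping in all. Unthinned, all 7 members had a UMI in 8 of 377 cluster 45 cells at 556.8 h and in 14 of 442 at 763.2 h, and no member had one in 13 and 22 cells. In the deeper cells of cluster 36 all 7 were present in 19 of 94 cells at 556.8 h and in 26 of 200 at 763.2 h.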

How the data were processed

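The deposited files hold whole-number UMI counts per feature and barcode, 27998 features in each of 5 libraries. Per the file headers they were written with software version 3.0.2, and the submitters' processing notes name mm10 and Seurat 4.3.0.1. The members and the gene lists were chosen with earlier results of these data known.

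Barcodes entered as cells from 1000 UMIs and 500 genes upwards, below 20% mitochondrial UMIs and below a Scrublet doublet score of 0.25 (scanpy 1.11.5). The automatic doublet threshold marked 0 to 2 cells in 4 of the libraries and was not used. The cells were clustered together (3000 variable genes, 40 components, 15 neighbours, Leiden resolution 2) without Speer genes, members and mitochondrial genes. Clusters were named from 15 marker lists by the share of each marker's highest cluster level. This rule replaced an earlier one that had called clusters led by pachytene genes elongating, and its thresholds were set after member levels had been seen.

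Counts were summed over cells and given as CPM with exact Poisson 95% intervals, shares with Clopper-Pearson intervals, and ratios with exact conditional binomial intervals. All cover counting error only, and no test was run because each time has 1 library. A feature is called at 2-fold or more with at least 20 UMIs in the 2 sums together. A count of 0 is given with a limit of 3 counts. CPM by mitochondrial share is over non-mitochondrial UMIs.

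Named genes are the 7 members, the 5 other Speer features with most UMIs, the 12 genes of highest Spearman's rho to the summed members (at least 200 UMIs, sums of at least 30 cells), and from each list the 4 with most UMIs in germ cells; genes leading clusters and sequence copies were named after their values were seen. Positions are from the GENCODE annotation of GRCm38 and sequences from RefSeq, GRCm38.p6. Windows of 50 bases were compared exactly on the sense strand, and identities come from global alignments with free end gaps, over aligned bases (Biopython 1.88). The scripts were tested on simulated data. Alternatives were other limits on cells, another resolution, clustering with the Speer genes, no removal by doublet score and equal weight per cell.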

Additional observations from a re-analysis of the deposited data

Results flagged for a closer look

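In the library of 763.2 h, member levels differed in opposite directions with the mitochondrial share in round-spermatid-like and pachytene-or-later-like cells. Summed members were 2.54 times as high in cells of 10 to 20% mitochondrial UMIs as in cells of under 5% in round-spermatid-like cells, and 0.211 times as high in pachytene-or-later-like cells. The difference between the classes was not tested, the second ratio rests on 6 UMIs in 31 cells, 29 of them of cluster 51, set against cells of which cluster 36 held 1854 of 1953 member UMIs, and it turned to 19.0 with cells of at least 5000 UMIs.

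Barcodes of 20 to 50% mitochondrial UMIs, which were left out of the cells, had higher member levels than barcodes of the same mitochondrial share in the control library of 0 h, which had 4.54 CPM from 1 UMI. Their levels were 84.2 CPM of non-mitochondrial UMIs at 350.4 h (534 UMIs in 529 barcodes), 42.7 CPM at 556.8 h (139 UMIs in 490 barcodes) and 178 CPM at 763.2 h (350 UMIs in 486 barcodes). In those of 2000 to 4000 UMIs the summed members were at 1099 CPM at 350.4 h, 9.71 CPM at 556.8 h and 326 CPM at 763.2 h. The members were chosen for their levels at 556.8 and 763.2 h, and stood at 0.834 CPM over all barcodes of 0 h. A level above that of 0 h is therefore not particular to barcodes of 20 to 50% mitochondrial UMIs.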

How the results depend on the processing

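No paired analysis was possible because each time has 1 library. With kept cells of under 10% mitochondrial UMIs, the summed members were at 10.7 CPM (556.8 h) and 29.1 CPM (763.2 h) in pachytene-or-later-like and at 216 and 314 CPM in round-spermatid-like cells; 2 members, the only ones with 20 UMIs, were at least 2-fold lower from round to elongating at 556.8 h; and in round-spermatid-like cells 2 members were higher and 0 lower at 763.2 h than at 556.8 h, with Gm21190 at 1.28 and Gm6408 at 1.18. The cluster holding most of cluster 45 then had 1016 CPM at 556.8 h and 620 CPM at 763.2 h. Of the 362 remaining cells of cluster 36, 227 were then in 1 cluster without a stage name, outside the pachytene-or-later-like class. With cells of at least 5000 UMIs the levels at 556.8 and 763.2 h were 31.7 and 103 CPM (pachytene-or-later-like) and 681 and 417 CPM (round-spermatid-like), 1 member was lower between the times in round-spermatid-like cells, and clusters 45 and 36 merged at 364 and 323 CPM. In pachytene-or-later-like cells 7 members were then higher and 0 lower at 10 to 20% mitochondrial UMIs, at both times, counts given without the share of all features. The ratios were 34.4 for Speer4e, 28.7 for Gm7361 and 34.6 for Gm6408 at 556.8 h, and at 763.2 h they were 19.0 for the sum, 12.1 for Speer4e, 24.3 for Gm10354, 21.8 for Gm17019, 16.7 for Gm9758, 17.9 for Gm7361 and 25.7 for Gm6408. At Leiden resolution 1 the round-spermatid-like levels were 760 and 454 CPM. In that class 4 members were higher with mitochondrial share at 556.8 h (29 cells against 99) and 0 lower with depth. With the Speer genes kept in the clustering the pachytene-or-later-like levels were 17.8 and 70.3 CPM, and the cluster holding most of cluster 36 had 348 and 310 CPM. With no removal by doublet score 4 members were higher with mitochondrial share in round-spermatid-like cells at 556.8 h, the cluster holding most of cluster 45 had 1158 and 1195 CPM, and that of cluster 36 had 255 CPM at 763.2 h. With equal weight per cell the pachytene-or-later-like level at 763.2 h was 135 CPM, and with mitochondrial share at 556.8 h 1 member was higher there (Gm7361 turned to 1.31), while 2 were higher and 1 lower in round-spermatid-like cells. Between the times, 0 members were higher in cluster 36 alone, and 0 higher and 1 lower in the rest of its class. Over kept cells the library level was 14.1 CPM at 350.4 h and 79.7 CPM at 763.2 h. Of the 12 genes most like the members 2 were shared by Pearson's r and 5 with clusters of at least 100 cells. For the alternative runs the share of all features past 2-fold is not given, so every count of members in them stands without a background. The cause of these shifts was not tested.

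The order of the summed members between the named classes, which leave out cluster 45 in the main run, held under every alternative run. The ratio of round-spermatid-like to pachytene-or-later-like cells stayed at 20.1 to 48.1 at 556.8 h and 3.597 to 10.8 at 763.2 h. That of elongating-spermatid-like to round-spermatid-like cells stayed at 0.00778 to 0.0501 and 0.0132 to 0.0248. Counts of members stayed within 1.5 times in 143 cases and moved further in 19, and of the ratios 479 were the same, 106 moved and 13 turned round. Levels of the summed members outside elongating-spermatid-like cells were the same in 31 cases and moved in 26, other levels in 225 and 83, and shares of features called in 47 and 65. Within the pachytene-or-later-like class at 763.2 h the comparison by depth was not made, because 7 cells had under 4000 UMIs. Depth limits single members: at 350.4 h cluster 45 had 31 cells, and a median of 4 to 10 member UMIs lay behind each of its cells. Alternatives on whole clusters 36 and 45 and the split of the pachytene-or-later-like class were added after the data had been seen.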
